A study of Mus musculus with 8 samples.

Results

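SMADs are the proteins that carry signals of the TGF-β superfamily from receptors at the cell surface to the nucleus, and SKI and SKIL are repressors that bind them there. Their transcripts were measured by RNA-seq in wild type and Pcgf5-/- mouse embryonic stem cells (mESCs), undifferentiated and at day 6 after neural differentiation. The genes were chosen by their symbols, Smad1, Smad2, Smad3, Smad4, Smad5, Smad6, Smad7, Smad9, Ski and Skil. All 10 were found among the 24849 rows of the expression tables, and 9 of them were among the 13214 rows with a mean over 1 FPKM in at least 1 group, which were tested. Smad9 lay under 1 FPKM in all 8 samples and was not tested. FPKM counts fragments per length of transcript and per depth of library, so that levels of different genes can be set side by side.

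The study held 8 libraries of polyA-selected RNA in 4 groups of 2 samples, all from MPI-II, a mESC line of the strain 129S2/SvPas. The wild type and Pcgf5-/- groups of day 0 were grown on feeder cells in medium with serum, LIF and the 2i inhibitors CHIR99021 and PD0325901. The wild type and Pcgf5-/- groups of day 6 were differentiated in N2B27 medium for 6 days. In Pcgf5-/- cells, TALENs had been used to place puromycin and neomycin resistance cassettes at the second exon of Pcgf5, which encodes a subunit of a Polycomb repressive complex. The mutant cells came from single picked colonies, so that an effect of the genotype and of the clone cannot be told apart. The labels name no wild type clone taken through the same selection. The study calls its day 6 samples independent, and for day 0 nothing says that the replicates came from separate cultures, so p-values measure only the spread between these samples.

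In this pathway, receptors for BMPs phosphorylate SMAD1, SMAD5 and SMAD9, and receptors for Nodal, activin and TGF-β phosphorylate SMAD2 and SMAD3. The phosphorylated receptor SMADs join SMAD4, the common SMAD, and the complex binds DNA together with partner proteins. SMAD6 and SMAD7, the inhibitory SMADs, act against receptors and receptor SMADs, and their genes are induced by the signal they limit. SKI and SKIL, also known as SnoN, recruit co-repressors to SMAD complexes. Both branches of the pathway are known to oppose the neural fate of early embryonic cells. Phosphorylation is not seen in RNA, so the values below concern transcript levels.

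Pcgf5 had 5.18 and 3.63 FPKM in wild type against 1.28 and 1.84 FPKM in Pcgf5-/- mESCs at day 0, and 9.16 and 5.06 FPKM against 0.669 and 0.457 FPKM at day 6. The libraries held 11031 to 12097 genes over 1 FPKM. Genes of chromosomes 6 and 11 were shifted upwards in Pcgf5-/- cells, with a median log2 fold change of 0.37 against -0.02 for the other genes at day 6, and none of the 10 genes lies there. At day 6 all 8 neural markers had risen in both genotypes, which goes with the labelled differentiation. The 8 mESC markers summed to 489 and 270 FPKM in wild type against 1223 and 1143 FPKM in Pcgf5-/- cells at day 6, and the 8 neural markers to 538 and 481 against 223 and 212 FPKM. The 10 fibroblast markers of the feeder cells summed to 194 to 609 FPKM at day 0, the highest value being that of replicate 2 of Pcgf5-/- cells, and to 16.2 to 40.8 FPKM at day 6.

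In undifferentiated wild type mESCs the common SMAD and the repressor Ski were the most abundant transcripts of the group, followed by the inhibitory Smad7. Smad4 had 19.3 ± 0.625 and Ski 18.25 ± 0.893 FPKM (mean ± SD, n = 2 here and below), and the samples of these genes overlapped. Smad7 followed with 16.3 ± 0.455 FPKM, about 2-fold above Skil with 8.22 ± 1.09 FPKM. The receptor SMADs were lower, from Smad2 with 7.40 ± 0.363 FPKM, which overlapped Skil, through Smad3 with 6.67 ± 0.527 and Smad5 with 4.54 ± 0.284 to Smad1 with 4.40 ± 0.906 FPKM, and Smad5 and Smad1 overlapped. Smad6 had 1.71 ± 0.216 FPKM. Smad9 was lowest, with 0.386 and 0.174 FPKM in wild type against 0.679 and 0.252 FPKM in Pcgf5-/- mESCs. Pcgf5-/- mESCs had nearly the same order, with Ski and Smad4 overlapping at the top and Smad7 next.

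At day 6 in wild type the order had changed below the top pair. Smad4 with 33.4 ± 2.80 and Ski with 31.4 ± 0.0991 FPKM still overlapped. Smad3 with 21.0 ± 0.986, Smad1 with 19.1 ± 0.720 and Smad5 with 15.0 ± 2.13 FPKM came next and did not overlap, and Smad2 with 12.3 ± 0.693 FPKM overlapped Skil with 9.40 ± 4.25 FPKM. Smad7 had gone from the third to the eighth place, with 4.52 ± 1.65 FPKM, above Smad6 with 2.44 ± 0.501 FPKM. In Pcgf5-/- cells at day 6 the levels lay closer together. Skil with 16.7 ± 7.21, Smad1 with 11.2 ± 1.13, Smad3 with 10.6 ± 0.685, Smad2 with 10.3 ± 1.40, Smad5 with 8.95 ± 0.932 and Smad7 with 8.22 ± 1.65 FPKM formed a run in which every gene overlapped its neighbour. Smad9 had at most 0.0700 FPKM in the 4 samples of day 6.

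**Figure D1:**
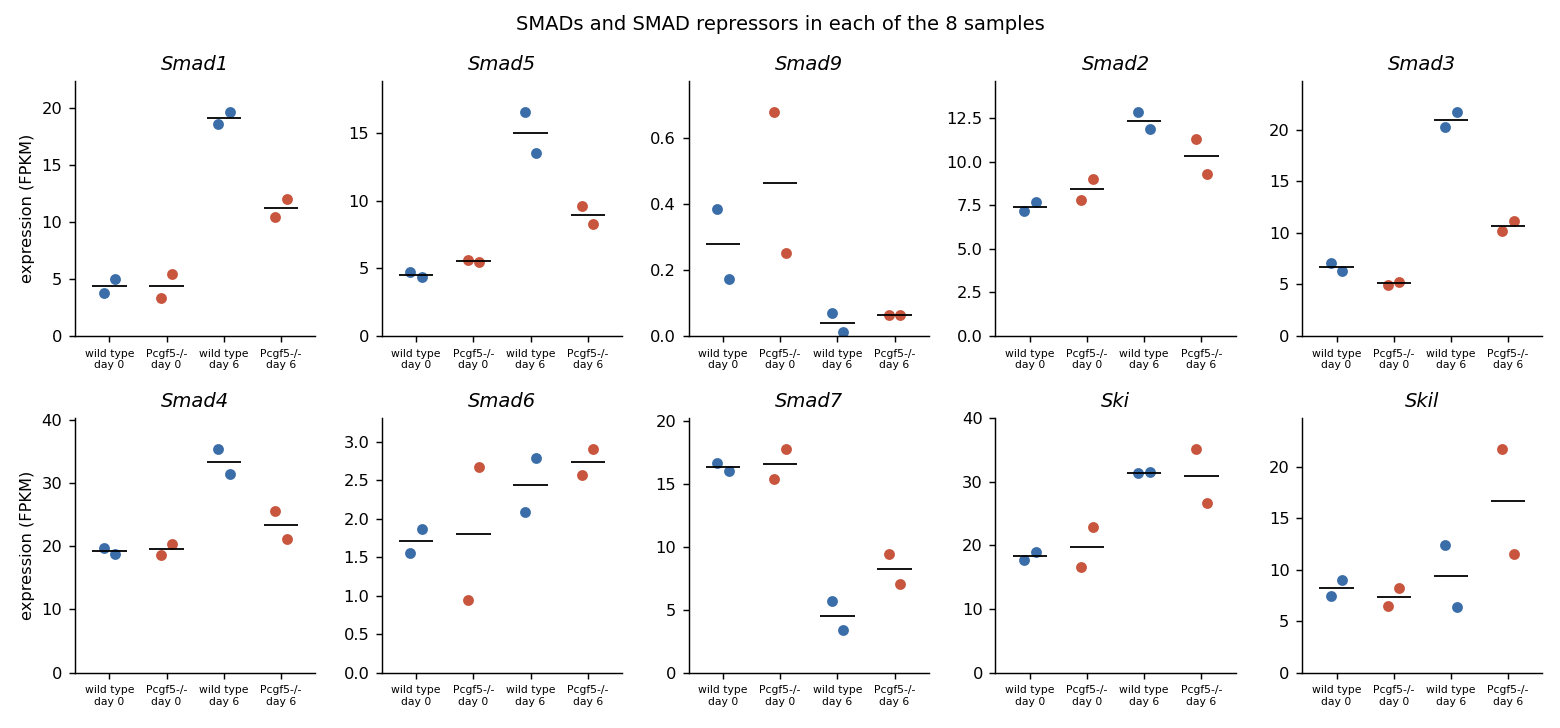
Each panel plots 1 gene, with FPKM on the y axis, the 4 groups on the x axis, a point for each of the 2 samples (blue, wild type; red, Pcgf5-/-) and a line for their mean. Smad1, Smad2, Smad3, Smad4 and Smad5 have both Pcgf5-/- samples under both wild type samples at day 6, Smad7 has them above, and the samples of Skil are far apart within each day 6 group.

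Replicates of the 9 tested genes differed by a median of 1.15-fold within a group and by 1.004-fold to 2.83-fold. Cufflinks gives a confidence interval with each FPKM value. Over all 10 genes, Smad9 included, the intervals of the samples did not overlap in 17 of the 40 pairs of replicates. Skil in Pcgf5-/- cells at day 6 was such a case, with 21.8 FPKM (interval 20.7 to 22.9) in replicate 1 and 11.6 FPKM (10.8 to 12.4) in replicate 2. Smad6 in Pcgf5-/- mESCs at day 0 was another, with 0.943 FPKM (0.665 to 1.21) and 2.67 FPKM (2.12 to 3.21). In these 17 pairs the samples therefore differed by more than their intervals cover. The intervals overlapped in the remaining pairs, among them those of Smad3 in every group. The share of such pairs over all rows was not counted.

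Promoter windows of 250 bases before to 50 bases after a transcription start were taken from RefSeq (GRCm38.p6) for 6 of the 10 genes, with 8 windows in all, since Smad5 has 3. The windows of 3 receptor SMADs and of the inhibitory Smad6 are shown because these genes sit side by side in the pathway. Their courses over 6 days were not tested against each other. Skil, Smad2, Smad4 and Smad7 are not shown. Each sequence runs 5′ to 3′ on the strand of its gene, and capitals mark the motifs found.
Smad1, chr8:79399379-79399678, minus strand: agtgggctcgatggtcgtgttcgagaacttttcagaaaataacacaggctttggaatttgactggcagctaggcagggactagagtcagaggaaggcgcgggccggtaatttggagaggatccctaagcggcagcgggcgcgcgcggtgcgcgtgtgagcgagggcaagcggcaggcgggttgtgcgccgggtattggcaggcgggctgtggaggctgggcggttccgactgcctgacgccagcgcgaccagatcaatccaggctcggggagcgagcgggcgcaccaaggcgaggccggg
Smad3, chr9:63757945-63758244, minus strand: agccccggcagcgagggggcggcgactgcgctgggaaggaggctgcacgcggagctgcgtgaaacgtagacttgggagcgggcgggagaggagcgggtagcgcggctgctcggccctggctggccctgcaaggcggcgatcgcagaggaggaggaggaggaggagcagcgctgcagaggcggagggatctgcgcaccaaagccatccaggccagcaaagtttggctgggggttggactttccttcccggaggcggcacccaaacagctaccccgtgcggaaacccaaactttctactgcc
Smad5, chr13:56702760-56703059, plus strand: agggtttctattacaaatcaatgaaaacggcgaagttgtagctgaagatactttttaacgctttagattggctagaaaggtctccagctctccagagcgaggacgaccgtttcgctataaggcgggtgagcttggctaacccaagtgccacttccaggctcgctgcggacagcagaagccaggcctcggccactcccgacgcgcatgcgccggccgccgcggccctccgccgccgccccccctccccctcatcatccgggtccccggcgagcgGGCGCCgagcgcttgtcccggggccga
Smad6, chr9:64022010-64022309, minus strand: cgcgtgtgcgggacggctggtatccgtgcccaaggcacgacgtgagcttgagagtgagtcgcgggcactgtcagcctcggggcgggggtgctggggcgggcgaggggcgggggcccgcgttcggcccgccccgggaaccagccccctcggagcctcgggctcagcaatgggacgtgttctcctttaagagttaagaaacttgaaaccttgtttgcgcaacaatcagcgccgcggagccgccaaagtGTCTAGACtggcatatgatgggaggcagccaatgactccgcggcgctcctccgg
The palindromic SMAD-binding motif GTCTAGAC begins 4 bases before the annotated start of Smad6 and is held on either strand by 70 of 32851 promoter windows (0.213%). The GC-rich SMAD motif GGCGCC is in the windows of Ski and Smad9 and in 2 overlapping windows of Smad5, the first of which is shown, and in 11.9% of all windows. Neither CAGACA, a short motif bound by SMAD3 and found in 21% of all windows on either strand, nor AATCCACA, a motif of the SMAD2/3 partner FOXH1 found in 0.855%, is in the 8 windows. No matches of different motifs overlap. The GC content was 63% to 85.3% in the 8 windows against a median of 52.7% for all windows. A match describes these letters and does not show binding.

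How the pathway's own components change as mESCs enter neural differentiation was asked first in wild type cells. Smad1, Smad2, Smad3 and Smad5, which are receptor SMADs, and Smad4 rose between day 0 and day 6, Ski rose with them and the inhibitory Smad7 fell. The receptor SMAD Smad9, not tested, went from 0.386 and 0.174 to 0.0700 and 0.0112 FPKM. By limma, with all 8 samples in a single fit and p-values adjusted over all rows tested, 6 of the 9 genes rose and 1 fell, where 34.2% of all rows rose and 16.2% fell. The median log2 fold change was 0.75 for the 9 genes and 0.22 for all rows, so that the rises are read against an upward shift of the whole table. All log2 fold changes here are of FPKM + 1.

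Smad1, a mediator of BMP signals, had 3.76 and 5.04 FPKM at day 0 and 18.6 and 19.7 FPKM at day 6, a log2 fold change of 1.91 (SE 0.23, limma adjusted p = 0.000309). Smad5, its close relative, had 4.74 and 4.33 against 16.5 and 13.5 FPKM, a log2 fold change of 1.53 (SE 0.17, limma adjusted p = 0.000227). Both genes were more than 2-fold higher in every sample of day 6 than in any sample of day 0. Smad3, which carries Nodal, activin and TGF-β signals, had 7.04 and 6.29 against 20.3 and 21.7 FPKM, a log2 fold change of 1.52 (SE 0.15, limma adjusted p = 0.000131). Smad2, which shares those receptors, rose less, from 7.15 and 7.66 to 12.8 and 11.8 FPKM (log2 fold change 0.67, SE 0.17, limma adjusted p = 0.0105). This call was lost without replicate 1 of day 6 (adjusted p = 0.0663), when the libraries were scaled to the genes outside chromosomes 6 and 11 (0.0505) and under quantile normalization (0.116).

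Smad4, the partner of all receptor SMADs, had 19.7 and 18.8 FPKM at day 0 and 35.4 and 31.5 FPKM at day 6 (log2 fold change 0.76, SE 0.14, limma adjusted p = 0.00288). Smad7, the inhibitor of both branches, was the gene that fell, from 16.6 and 16.0 to 5.68 and 3.35 FPKM, a log2 fold change of -1.68 (SE 0.23, limma adjusted p = 0.000613). Each sample of day 6 lay well below each sample of day 0, and its direction was opposite to that of the 4 receptor SMADs tested. Smad6, the inhibitor that acts mainly on the BMP branch, had 1.56 and 1.86 against 2.08 and 2.79 FPKM (log2 fold change 0.34, 95% interval -0.34 to 1.01, limma adjusted p = 0.363). Ski had 17.6 and 18.9 against 31.4 and 31.5 FPKM (0.75, SE 0.19, limma adjusted p = 0.0107), a call lost without replicate 1 of day 0 (0.0544) or replicate 2 of day 6 (0.0512). Skil had 7.45 and 8.997 against 12.4 and 6.397 FPKM, so that the groups overlapped (log2 fold change 0.12, 95% interval -0.68 to 0.91, limma adjusted p = 0.798).

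In Pcgf5-/- cells the same comparison gave smaller log2 fold changes for the 4 receptor SMADs tested. The test of a difference between the genotypes in this course, given below, was passed by 0 of the 9 genes. By limma 4 of the 9 genes, Smad1, Smad3, Smad5 and Ski, rose and 1, Smad7, fell between day 0 and day 6, where 21.9% of all rows rose and 10.4% fell. The median log2 fold change was 0.60 for the 9 genes and 0.13 for all rows. Smad1 had 3.30 and 5.45 FPKM at day 0 and 10.4 and 12.04 FPKM at day 6, a log2 fold change of 1.21 (SE 0.23, limma adjusted p = 0.00575). Smad3 had 4.92 and 5.27 against 10.2 and 11.1 FPKM (0.93, SE 0.15, limma adjusted p = 0.00321). These calls held without any 1 of the 8 libraries.

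Smad5 in Pcgf5-/- cells had 5.61 and 5.48 FPKM at day 0 and 9.61 and 8.29 FPKM at day 6 (log2 fold change 0.60, SE 0.17, limma adjusted p = 0.0296). Ski had 16.5 and 22.8 against 35.1 and 26.6 FPKM (0.63, SE 0.19, limma adjusted p = 0.0350), and Smad7 had 15.4 and 17.7 against 9.39 and 7.05 FPKM (-0.94, SE 0.23, limma adjusted p = 0.0173). The calls of these 3 genes depended on single libraries. That of Smad5 was lost without any 1 of the 4 Pcgf5-/- libraries (adjusted p = 0.0649 to 0.135), that of Smad7 without replicate 1 or 2 of day 0 (0.0549 and 0.0831) or replicate 2 of day 6 (0.104), and that of Ski without replicate 1 of either day (0.203 and 0.182) or any 1 of the wild type libraries (0.0505 to 0.0535). Scaling to the genes outside chromosomes 6 and 11 ended the calls of Smad5 (0.0798) and Ski (0.0802).

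Smad2 and Smad4, which rose in wild type, had log2 fold changes of 0.26 (95% interval -0.12 to 0.64) and 0.24 (-0.09 to 0.57) in Pcgf5-/- cells and did not pass the test (limma adjusted p = 0.258 and 0.227). Skil had 6.49 and 8.28 FPKM at day 0 and 21.8 and 11.6 FPKM at day 6, a log2 fold change of 1.02 just outside the threshold (SE 0.34, limma adjusted p = 0.0531). Smad6 had 0.943 and 2.67 against 2.57 and 2.90 FPKM, so that its groups overlapped (0.48, 95% interval -0.19 to 1.16, limma adjusted p = 0.242). The summed feeder markers moved with the day in both genotypes, and 6 of 10 in wild type and 7 of 10 in Pcgf5-/- cells fell, with none at 0 in any sample. Their part in the day effects was not tested. Without the Pcgf5-/- library richest in these markers, replicate 2 of day 0, the log2 fold change of Smad7 was -0.84 and that of Smad5 0.59. Replicate 1 of day 0 still held 194.5 FPKM of these markers, against 16.2 and 17.1 FPKM at day 6. Leaving out a library therefore cannot tell the day and the feeder cells apart. In bulk RNA, fewer cells of a type and less RNA per cell cannot be told apart.

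**Figure D2:**
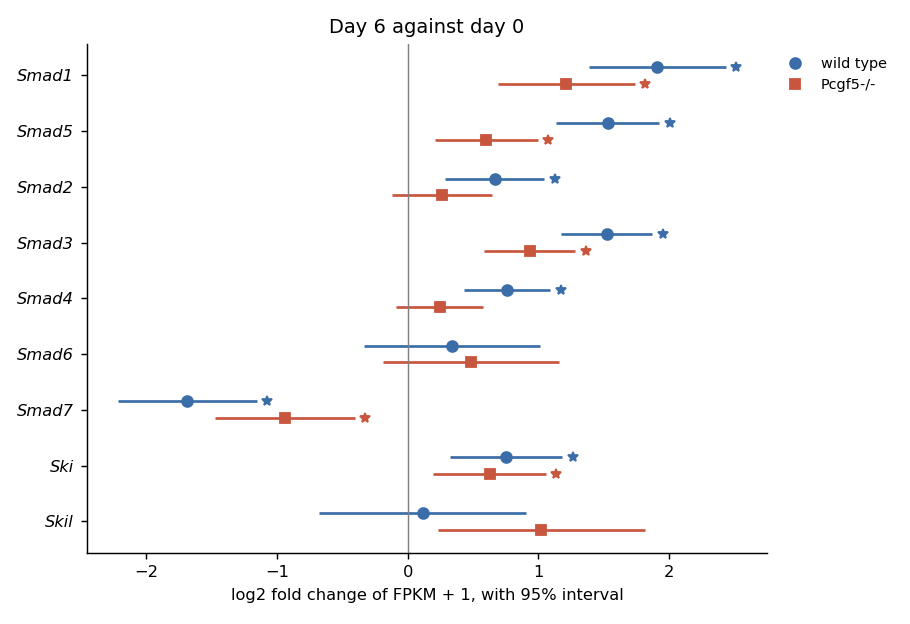
The x axis gives the log2 fold change of FPKM + 1 from day 0 to day 6 with its 95% interval for the 9 tested genes (y axis), in wild type (blue circles) and Pcgf5-/- cells (red squares), and a star marks a limma adjusted p under 0.05. The 4 receptor SMADs tested and Smad4 lie further right in wild type, from 0.67 to 1.91, than in Pcgf5-/- cells, from 0.24 to 1.21, and Smad7 lies left of 0 in both. The difference between the genotypes in these changes passed the limma threshold for 0 of the 9 genes.

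Whether the loss of PCGF5 alters these transcripts before differentiation was asked at day 0. By limma 0 of the 9 genes passed the threshold, and 0.333% of all rows did so, and 0 of the 9 had an unadjusted p under 0.05. The largest difference was that of Smad3, with 7.04 and 6.29 FPKM in wild type against 4.92 and 5.27 FPKM in Pcgf5-/- mESCs, a log2 fold change of -0.33 (95% interval -0.68 to 0.02, limma adjusted p = 0.312). Smad3 was the 1 gene of the 9 whose Pcgf5-/- samples were all lower, against 13.3% of all rows. Smad2 and Smad5 were the 2 genes whose Pcgf5-/- samples were all higher, against 34.6% of all rows, with log2 fold changes of 0.16 (95% interval -0.22 to 0.54) and 0.24 (-0.15 to 0.64). The remaining 6 genes had log2 fold changes of -0.14 to 0.09, and the widest interval was that of Skil, -0.93 to 0.65. The direction of Smad4 and Smad7, at 0.01 and 0.02, flipped with the scaling of the libraries, and that of Ski under quantile normalization.

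At day 6 the receptor SMADs Smad3 and Smad5 and the common Smad4 were lower in Pcgf5-/- cells than in wild type, while Smad1, Smad2 and Smad7 did not pass the test. By limma 3 of the 9 genes, Smad3, Smad5 and Smad4, were lower, where 7.05% of all rows were, and 0 were higher, where 9.57% of all rows were. Besides these, Smad1 and Smad2 had both Pcgf5-/- samples under both wild type samples, which makes 5 of 9 genes against 28.8% of all rows. Smad7 alone had both above, against 33.4% of all rows. The median log2 fold change was -0.24 for the 9 genes and 0.02 for all rows.

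Smad3 had 20.3 and 21.7 FPKM in wild type against 10.2 and 11.1 FPKM in Pcgf5-/- cells, a log2 fold change of -0.92 (SE 0.15, limma adjusted p = 0.00936). Its mean in Pcgf5-/- cells, 10.6 FPKM, compares with 21.0 FPKM in wild type. Smad5 had 16.5 and 13.5 against 9.61 and 8.29 FPKM (-0.69, SE 0.17, limma adjusted p = 0.0318). Smad4 had 35.4 and 31.5 against 25.5 and 21.2 FPKM (-0.50, SE 0.14, limma adjusted p = 0.0478), close to the threshold. Smad1 had 18.6 and 19.7 against 10.4 and 12.04 FPKM, and its log2 fold change of -0.72 missed the threshold (95% interval -1.24 to -0.20, limma adjusted p = 0.0646). Smad2, the other SMAD of the Nodal branch, differed less, with 12.8 and 11.8 against 11.3 and 9.32 FPKM (-0.24, 95% interval -0.62 to 0.14, limma adjusted p = 0.348). Smad9, not tested, had 0.0700 and 0.0112 FPKM in wild type against 0.0642 and 0.0650 FPKM in Pcgf5-/- cells, and the groups overlapped.

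Among the inhibitors and repressors no gene passed the test at day 6 in this fit, which has no replicate block. Smad7 had 5.68 and 3.35 FPKM in wild type against 9.39 and 7.05 FPKM in Pcgf5-/- cells, a log2 fold change of 0.76 (95% interval 0.23 to 1.30, limma adjusted p = 0.0577). Skil, with 12.4 and 6.397 against 21.8 and 11.6 FPKM, had the same log2 fold change of 0.76, but its groups overlapped (-0.03 to 1.56, limma adjusted p = 0.166). Replicate 1 was the higher sample of Skil in both genotypes. Smad6 had 2.08 and 2.79 against 2.57 and 2.90 FPKM (0.13, -0.55 to 0.80, limma adjusted p = 0.805). Ski had 31.4 and 31.5 against 35.1 and 26.6 FPKM (-0.04, -0.47 to 0.39, limma adjusted p = 0.915), so that the Pcgf5-/- samples lay on either side of those of wild type.

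The 3 calls rested on the libraries of day 6. Without replicate 2 of wild type or replicate 1 of Pcgf5-/- cells none of the 9 genes passed, and the adjusted p of Smad3 was 0.0685 and 0.0625. Without replicate 2 of Pcgf5-/- cells Smad3 alone passed (0.0370), and without replicate 1 of wild type Smad3 (0.0381) and Smad7 (log2 fold change 1.07, 0.0360) did. The call of Smad4 was also lost without any 1 of the day 0 libraries (0.0635 to 0.0653), and Smad1 passed without replicate 1 or 2 of Pcgf5-/- mESCs at day 0 (0.0434 and 0.0440). Markers of mESCs and of neural cells moved with the genotype at day 6, 7 of 8 mESC markers being higher and 6 of 8 neural markers lower in Pcgf5-/- cells, with Dcx at 0 in at least 1 sample of the series. The fibroblast markers summed to 28.6 and 40.8 FPKM in wild type against 16.2 and 17.1 FPKM in Pcgf5-/- cells at day 6. Of these 10 markers 1, S100a4, was lower by limma (-1.12, adjusted p = 0.0365), and 1 had a log2 fold change above 0. The part of these cell types in the differences of the SMADs was not tested.

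**Figure D3:**
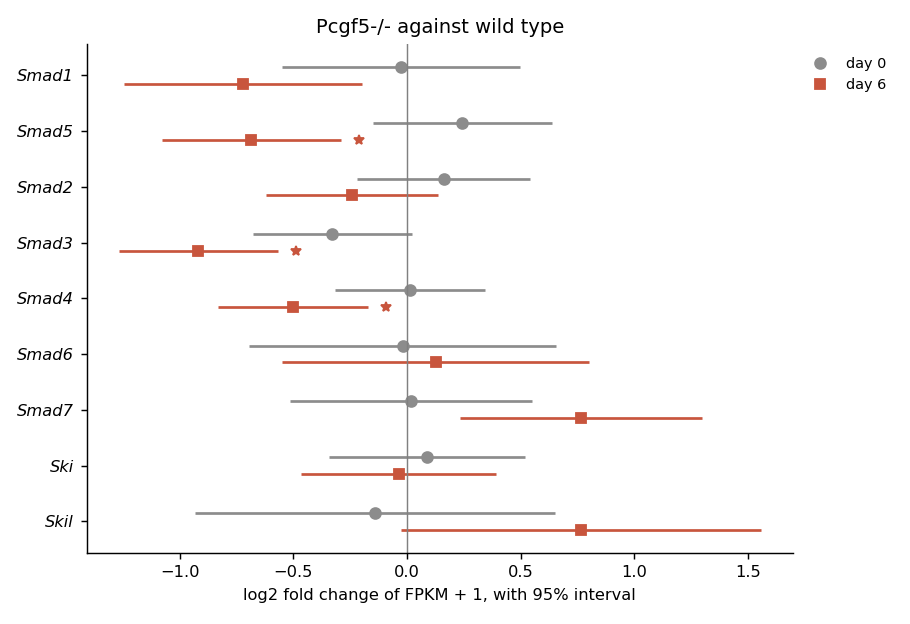
The x axis gives the log2 fold change of FPKM + 1 in Pcgf5-/- against wild type cells with its 95% interval for the 9 tested genes (y axis), at day 0 (grey circles) and day 6 (red squares), and a star marks a limma adjusted p under 0.05. All intervals of day 0 include 0, and at day 6 Smad3, Smad4 and Smad5 carry a star on the left side.

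Whether the genotype effect differed between the days was tested as an interaction, the effect at day 6 minus that at day 0. By limma 0 of the 9 genes passed the threshold in either direction, where 1.34% of all rows were higher and 1.75% lower. An unadjusted p under 0.05, for which the share of all rows was not counted, was found for 3 of the 9. These were Smad5 with -0.93 (95% interval -1.48 to -0.37, limma adjusted p = 0.0755), Smad3 with -0.59 (-1.08 to -0.09, 0.158) and Smad4 with -0.52 (-0.98 to -0.05, 0.179). Smad5 was higher in both Pcgf5-/- samples at day 0 and lower in both at day 6. Smad7 had 0.75 (-0.01 to 1.499, 0.219) and Skil 0.90 (-0.21 to 2.02, 0.303). A difference between the days, or between the genotypes in their course, was thus not shown for any of these genes, although the intervals of Smad5, Smad3 and Smad4 leave out 0 before adjustment.

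The mean of Pcgf5-/- cells at day 6 lay between the wild type means of day 0 and day 6 for 7 of the 9 genes, all but Smad6 and Skil. Of all rows tested 53.2% did so. Ski is counted among the 7 with a mean of 30.9 FPKM against 31.4 FPKM in wild type at day 6. Its Pcgf5-/- samples lay on either side of those of wild type. The comparisons of day in wild type and of genotype at day 6 share the wild type samples of day 6, so their values are given side by side only. Smad1 had a log2 fold change of 1.91 over 6 days in wild type and of -0.72 between the genotypes at day 6, Smad3 of 1.52 and -0.92, Smad5 of 1.53 and -0.69, Smad4 of 0.76 and -0.50, and Smad7 of -1.68 and 0.76.

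Summed over the 10 genes, transcripts came to 86.1 and 88.1 FPKM in wild type against 80.3 and 97.4 FPKM in Pcgf5-/- mESCs at day 0, and to 155 and 142 against 136 and 110 FPKM at day 6. The make-up of these sums shifted. Smad6 and Smad7 together gave 21.2% and 20.3% of the sum in wild type at day 0 and 5.001% and 4.32% at day 6, and 8.80% and 9.04% in Pcgf5-/- cells at day 6. Ski and Skil gave 28.2% and 26.6% of the sum in wild type and 41.8% and 34.7% in Pcgf5-/- cells at day 6.

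The inhibitory SMADs were set against the receptor SMADs, whose products they hold back, as the ratio of their summed FPKM. This ratio was 0.789 and 0.760 in wild type and 0.732 and 0.802 in Pcgf5-/- mESCs at day 0. At day 6 it was 0.114 and 0.0920 in wild type and 0.288 and 0.244 in Pcgf5-/- cells, so that the genotypes overlapped at day 0 and not at day 6. The log2 ratio was higher by 1.37 in Pcgf5-/- cells at day 6 (means -3.29 ± 0.215 and -1.92 ± 0.169). A two-sided exact permutation test gave p = 0.333, the smallest value that this test can give for 2 against 2 samples, so the test could not pass 0.05. The ratio of Ski and Skil to the receptor SMADs was 0.640 and 0.568 in wild type and 1.37 and 0.935 in Pcgf5-/- cells at day 6, a log2 difference of 0.91 (exact permutation p = 0.333). At day 0 it was 1.09 and 1.19 against 1.03 and 1.22.

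The balance of the branches, Smad2 and Smad3 over Smad1, Smad5 and Smad9, was 1.60 and 1.46 in wild type and 1.33 and 1.28 in Pcgf5-/- mESCs at day 0, a log2 difference of -0.23 (exact permutation p = 0.333). At day 6 it was 0.940 and 1.01 against 1.07 and 1.00, and the genotypes overlapped (log2 difference 0.09, exact permutation p = 0.667). From day 0 to day 6 the log2 ratio went from 0.61 ± 0.0907 to -0.04 ± 0.0739 in wild type and from 0.38 ± 0.0391 to 0.05 ± 0.0635 in Pcgf5-/- cells (exact permutation p = 0.333 for each). When means of log2(FPKM + 1) replaced the sums, the changes over the days were 0.05 and 0.14 in place of -0.65 and -0.33, and the difference at day 6 was -0.12 in place of 0.09. With sums that left out Smad9, the changes over the days were -0.69 and -0.40 and the difference at day 6 was 0.09, with the signs of the full sums. The direction of this balance thus differed between sums and means of logs.

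**Figure D4:**
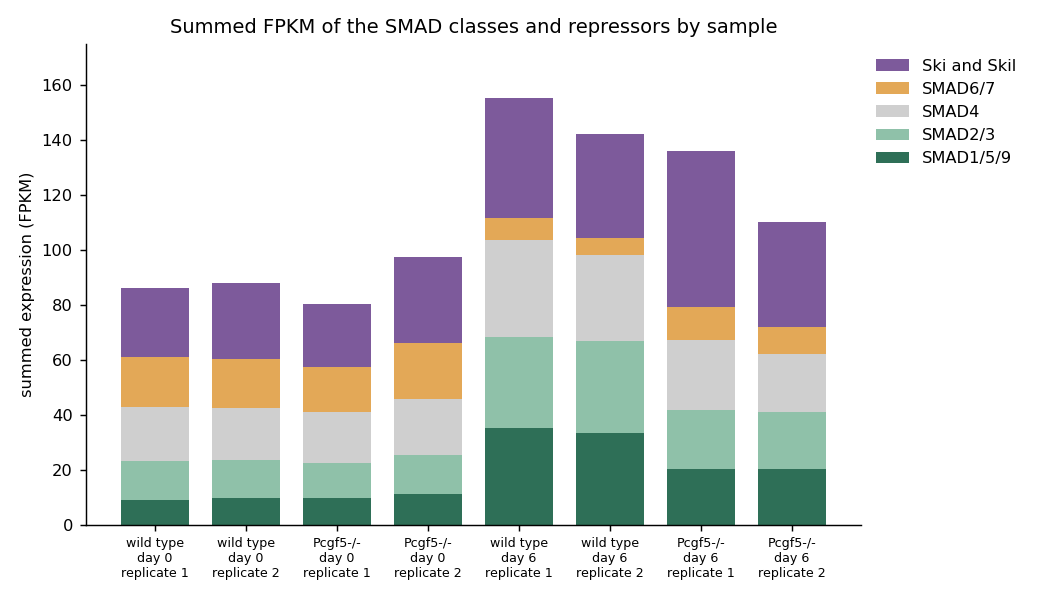
Each bar is 1 of the 8 samples, with summed FPKM on the y axis, split into the receptor SMADs of the BMP branch (SMAD1/5/9) and of the Nodal, activin and TGF-β branch (SMAD2/3), SMAD4, the inhibitory SMADs (SMAD6/7) and the repressors Ski and Skil. The inhibitory share is widest at day 0, 20.3% to 21.2%, and narrowest in wild type at day 6, 4.32% to 5.001%.

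Other genes of the pathway were read from lists in the same fit. Of the 10 receptors tested, 3 were lower and 0 higher in Pcgf5-/- cells at day 6, where 7.05% of all rows were lower and 9.57% higher. Tgfbr1, a type I receptor for TGF-β, had 35.1 and 25.1 FPKM in wild type against 16.3 and 13.0 FPKM in Pcgf5-/- cells (log2 fold change -0.98, SE 0.20, limma adjusted p = 0.0155). Acvr2a, a type II receptor for activins, Nodal and BMPs, had 15.3 and 12.8 against 7.87 and 6.53 FPKM (-0.87, limma adjusted p = 0.0168), and Bmpr1a, a type I receptor for BMPs, 33.7 and 32.1 against 24.7 and 22.5 FPKM (-0.46, limma adjusted p = 0.0382). The median log2 fold change of the 10 was -0.40. Without 1 of the 4 libraries of day 6, 0 or 1 of the 10 receptors passed.

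Of 14 genes for ubiquitin ligases, deubiquitinases and other factors acting on SMAD proteins, 0 passed the test by limma at day 6. An unadjusted p under 0.05 was found for 3, a share not counted over all rows, and the median log2 fold change was 0.03. In wild type over 6 days 3 of the 14 rose and 2 fell, no more than the 34.2% and 16.2% of all rows. Among them were Usp11, a deubiquitinase, with 1.41 (limma adjusted p = 0.000548) and Pmepa1, which hinders the recruitment of SMAD2/3, with -1.44 (limma adjusted p = 0.0219). Of 12 DNA-binding partners, 1 was higher and 1 lower in Pcgf5-/- cells at day 6, near the 9.57% and 7.05% of all rows. Foxh1, the partner of SMAD2/3 in Nodal signalling, had 12.9 and 9.29 FPKM in wild type against 32.2 and 31.6 FPKM in Pcgf5-/- cells (log2 fold change 1.46, SE 0.20, limma adjusted p = 0.00582). Zeb2, a repressor that binds SMADs and is expressed in neural progenitors, had 14.0 and 15.2 against 6.47 and 4.70 FPKM (-1.26, SE 0.30, limma adjusted p = 0.0272). The call of Foxh1 held without any 1 library, and that of Zeb2 was lost without any 1 of the libraries of day 6. That of Pmepa1 over the days was lost without replicate 1 of day 0 or replicate 2 of day 6.

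Of 13 other co-regulators, 3 were higher and 2 lower in Pcgf5-/- cells at day 6, against 9.57% and 7.05% of all rows, with a median log2 fold change of 0.10. Tgif1, a co-repressor of SMAD2/3, had 52.7 and 51.8 FPKM in wild type against 103.7 and 91.1 FPKM in Pcgf5-/- cells (log2 fold change 0.88, limma adjusted p = 0.00560), and held its call without any 1 library. Kat2b, an acetyltransferase, had 1.08 (limma adjusted p = 0.0275). Ctbp1, a co-repressor, had 80.7 and 89.2 against 48.6 and 55.0 FPKM (-0.70, limma adjusted p = 0.0140), and Dach1, a relative of Ski, 11.7 and 8.997 against 1.48 and 2.67 FPKM (-1.90, limma adjusted p = 0.00434). The calls of Kat2b and Ctbp1 were lost without replicate 2 of wild type or replicate 1 of Pcgf5-/- cells at day 6, and that of Dach1 held without any 1 library.

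Known targets of the branches, other than the 10 genes, were read at day 6, where 9.57% of all rows were higher and 7.05% lower. Of 9 targets of the SMAD2/3 branch 4 were higher and 0 lower in Pcgf5-/- cells, with a median log2 fold change of 0.55. These were Tdgf1, Lefty2, Lefty1 and Nodal, at 2.44, 2.30, 2.14 and 1.70 (limma adjusted p = 0.0147, 0.00901, 0.0349 and 0.00914). Tdgf1 is also in the list of mESC markers. From day 0 to day 6, Tdgf1, Lefty2 and Nodal had log2 fold changes of -3.28, -3.72 and -2.49 in wild type. In Pcgf5-/- cells they had -1.17 (limma adjusted p = 0.0952), -1.87 and -0.90. Lefty1 had 0.59 in wild type (limma adjusted p = 0.398) and 3.54 in Pcgf5-/- cells over the same days. Its wild type samples overlapped between the days, with 6.97 and 25.4 against 31.1 and 13.8 FPKM. Without replicate 1 of Pcgf5-/- cells at day 6, 0 of the 9 passed, and without 1 of the other 3 libraries of day 6, 3 or 4 did. Of 10 targets of the SMAD1/5/9 branch 6 were lower and 0 higher, with a median of -0.91. Id3, Id2 and Id1, inhibitors of differentiation factors, had -1.60, -1.37 and -1.06, and Hey1 -0.95 (limma adjusted p = 0.0409, 0.0389, 0.0174 and 0.0350). Without 1 of the 4 libraries of day 6, 0 to 2 of the 10 passed, and without replicate 1 or 2 of Pcgf5-/- mESCs at day 0, 3 did. The lists were chosen with earlier results of these samples known, so their directions are descriptions. Of the SMAD2/3 targets 0 of 9 passed the interaction by limma, so a different course over the days in the genotypes was not shown.

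**Figure D5:**
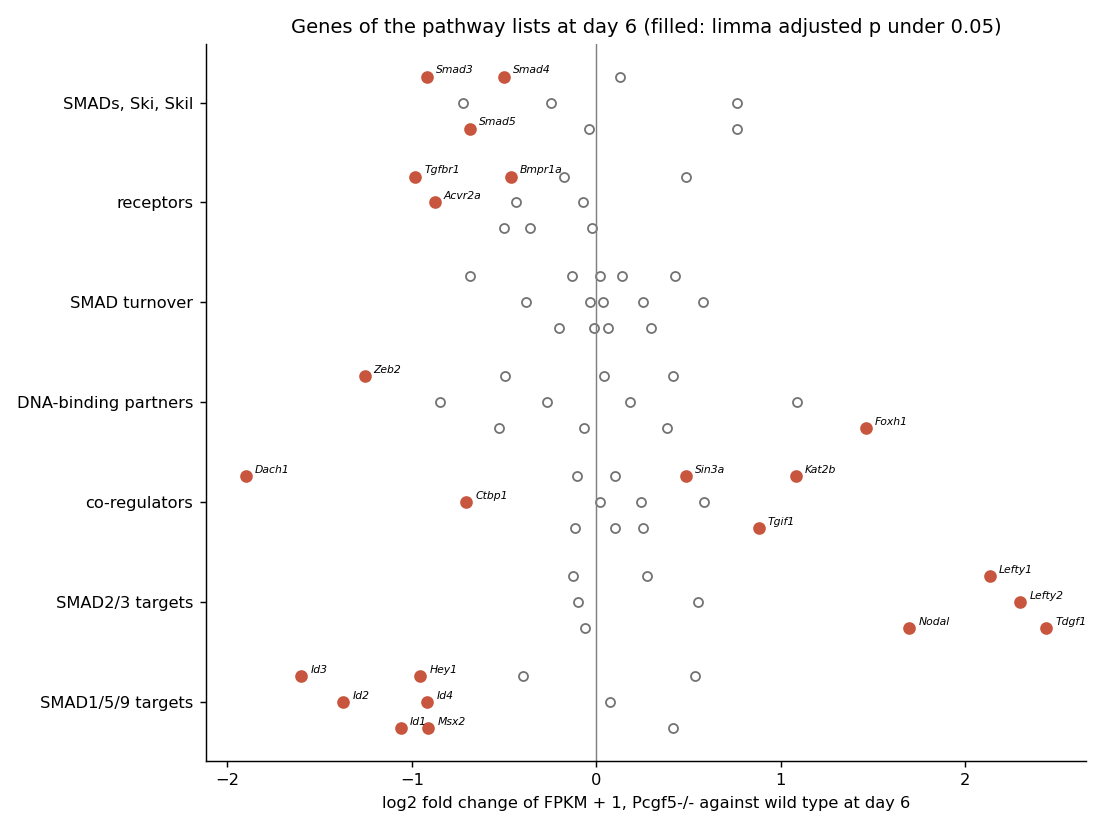
Each point is a tested gene of the list on the y axis, and the x axis gives its log2 fold change of FPKM + 1 in Pcgf5-/- against wild type cells at day 6, filled and named where the limma adjusted p is under 0.05. Called SMADs and receptors lie left of 0, as do the called SMAD1/5/9 targets, and the 4 called SMAD2/3 targets lie between 1.70 and 2.44.

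The genes most like each of the 9 over the 8 samples were found by Pearson's r of log2(FPKM + 1), among tested genes with a locus of at least 300 bases. The samples are 4 pairs of replicates and differ most between the days, so r mainly describes that step and carries no test. Smad1 was most like Zfp617, Fam126a and Homez (r = 0.997 to 0.995), and Smad5 most like Pik3c2b, Megf9 and Acvr2a (0.997 to 0.994). Smad3 was most like Rap2a, Csrnp3 and Sox2ot (0.994 to 0.993), Smad2 like Nbea, Micall1 and Ptpn12 (0.994 to 0.989), and Smad4 like Cdh6, Zbtb39 and Pou3f4 (0.995 to 0.992). Ski, like Smad5, had a receptor of the pathway in its list, being most like Bmpr1b, Fmnl3 and Srebf2 (0.995 to 0.993). Smad7 was most like Cpt1a, Pttg1ip and Wdr44 (0.996 to 0.994). Skil was most like Spry2 and Enc1 (0.990 and 0.983), and Smad6 like Mbd3, Crat and Sugp1 (0.975 to 0.955). Among the 9 genes themselves r was highest for Smad4 and Smad5 (0.962) and lowest for Smad3 and Smad7 (-0.957), and Skil had r of at most 0.644, with Ski.

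In the mm9 build used for the files, Smad1 lies on chromosome 8 from 81862298 to 81923367, Smad3 and Smad6 on chromosome 9 from 63494574 to 63605801 and from 63800883 to 63869866, and Smad5 on chromosome 13 from 56804371 to 56843739. Ski lies on chromosome 4 from 154528184 to 154596644, Skil on chromosome 3 from 30993980 to 31021845, Smad9 also on chromosome 3, and Smad2, Smad4 and Smad7 on chromosome 18. The values are for whole genes and do not separate their isoforms.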

How the data were processed

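RNA-seq of polyA-selected RNA was analysed in 8 samples, 2 each of wild type and Pcgf5-/- cells at day 0 and day 6, grouped by their labels. Per the labels and the methods of the study, the authors aligned reads to mm9 with TopHat2 2.0.4, removed duplicates and computed the deposited FPKM values and their confidence bounds with Cufflinks 2.1.1. The annotation is not given in the sources used here. FPKM keeps no read counts, so depth per value is known only through the Cufflinks bounds. The columns used hold 1 sample each.

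Rows with a mean over 1 FPKM in at least 1 of the 4 groups were kept, and log2(FPKM + 1) was fitted with limma 3.58.1 (R 4.3.3) as 4 group means over all 8 samples, with a variance trend and Benjamini-Hochberg adjustment over all 13214 rows at a threshold of 0.05. A fold change on this scale understates that of low genes. Scripts were tested on simulated data. Summed ratios were compared by two-sided exact permutation (scipy 1.17.1). Named genes were the 10 members, Pcgf5, per list and comparison at most the 4 genes past the threshold with the largest change, and the 3 genes most like each member, of which 1 for Skil is not reported here. The members and lists were chosen with earlier results of these data known. Same-numbered samples did not deviate together across days (r = -0.0765 to -0.0221) but did within day 6 (0.387; day 0, 0.102). No label ties a number to a shared culture, and the main fit has no block. Alternatives were other pseudocounts, filters, scalings, blocks and leaving out each library.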

Additional observations from a re-analysis of the deposited data

Results flagged for a closer look

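Of the pathway genes described, Dach1 and Ctbp1, co-regulators of SMADs, passed the interaction test of the genotype effect between the days. They were 2 of 13 co-regulators, both lower, where 1.75% of all rows were lower. By the same test 3 of 8 mESC markers were higher, where 1.34% of all rows were, and 4 of 8 neural markers were lower. The effect on Dach1 at day 6 minus that at day 0 was -1.92 (log2 of FPKM + 1, limma adjusted p = 0.0315). Dach1 was near 0 in all day 0 samples, with 0 to 0.07 FPKM, so that no genotype effect could show there and the value restates the difference of day 6. Its call was lost at pseudocounts of 0.1 and 0.01 (0.0863 and 0.240). The same value for Ctbp1 was -1.17 (limma adjusted p = 0.0305). At day 0 Ctbp1 had 28.1 and 26.8 FPKM in wild type against 34.9 and 41.7 FPKM in Pcgf5-/- mESCs. That difference did not pass the test (log2 fold change 0.46, limma adjusted p = 0.133). Dach1 and Ctbp1 were both lower in all Pcgf5-/- samples of day 6. The call of Dach1 held in 7 and that of Ctbp1 in 10 of 17 alternatives. Among the alternatives without 1 library, that of Dach1 was kept only without replicate 1 of wild type at day 6 (0.0491), and that of Ctbp1 there (0.0424) and without replicate 1 of Pcgf5-/- mESCs at day 0 (0.0445).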

How the results depend on the processing

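Of the members' calls, those of Smad1, Smad3, Smad4, Smad5 and Smad7 over the days in wild type and of Smad1 and Smad3 over the days in Pcgf5-/- cells held under all 18 alternatives, and those of Smad3, Smad5 and Smad4 between the genotypes at day 6 under 16, 13 and 5 of 18. At day 6 the number of members called was 3, and 5 under quantile normalization. The labels number the replicates without saying what a number shares, and same-numbered samples deviated together within day 6 (r = 0.387) but not across days. Blocking on that number gave 5 (1 block for both days, adding Smad1 and Smad7, limma adjusted p = 0.0329 and 0.0499). With a block within each day it was 6, adding Smad1, Smad7 and Skil (0.0176, 0.0163 and 0.0114). Then 2 members, Smad5 and Skil, passed the interaction. At day 6, 3 of the 14 factors acting on SMADs and 4 of the 12 partners passed, where 0 and 2 did without the block. Calls over all rows moved with the alternatives too, from 2197 in the main fit to at most 3235 at day 6. For the interaction they went from 408 to at most 1167, so the blocked counts are not read as particular to these genes. Between the days in Pcgf5-/- cells 5 members were called, and 3 when scaled to the genes outside chromosomes 6 and 11. Without 1 library each these counts were 0 to 3 at day 6 and 2 to 5 between the days in Pcgf5-/- cells.

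Signs turned for members near 0 that passed no test. For the genotype at day 0 quantile normalization gave Smad4 -0.10, Smad7 -0.11 and Ski -0.031, and the scaling Smad4 -0.070 and Smad7 -0.068. Without 1 library each, the ranges there were -0.32 to 0.27 for Smad1, -0.048 to 0.077 for Smad4, -0.48 to 0.44 for Smad6, -0.081 to 0.11 for Smad7, -0.13 to 0.31 for Ski and -0.30 to 0.014 for Skil. At day 6 they were -0.023 to 0.28 for Smad6 and -0.23 to 0.16 for Ski, and for the interaction -0.31 to 0.60 for Smad6 and -0.35 to 0.10 for Ski. Between the days in wild type Smad6 was -0.12 and Skil -0.24 under quantile normalization, and Skil -0.10 with the scaling and -0.31 to 0.54 without 1 library each.

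With means of log2(FPKM + 1) in place of sums, SMAD2/3 over SMAD1/5/9 was -0.12 between the genotypes at day 6, and 0.046 and 0.14 between the days in wild type and Pcgf5-/- cells. SMAD6/7 over receptor SMADs was 0.95, -1.74 and -0.74 in the same order, and Ski and Skil over receptor SMADs -0.63 and 0.31 between the days. Without 1 library each, SMAD6/7 over receptor SMADs was 1.22 to 1.53 between the genotypes at day 6 and -3.07 to -2.77 between the days in wild type, and Ski and Skil over receptor SMADs 0.63 to 1.18 and, between the days in Pcgf5-/- cells, -0.26 to 0.29. The cause of these changes was not tested.

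Over all rows, the calls numbered 44 for the genotype at day 0 (0 to 282 over the alternatives), 2197 at day 6 (297 to 3235), 4271 for the days in Pcgf5-/- cells (2367 to 5533) and 408 for the interaction (4 to 1167). Where a group is left with 1 sample, that sample is assumed to vary like the others. With 2 samples a group, and no read counts in the files, what was detectable depended on each gene's spread and on the model: Smad4 passed at -0.50 between the genotypes at day 6, and Smad7 at 0.76 did not.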
